A study of Mus musculus with 14 samples.

Results

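Cholesterol synthesis and transport genes were followed here as a set of 28 genes in RNA profiles of mouse intestinal stem cells, the Lgr5-expressing cells at the crypt base that renew the gut epithelium. Members were the rows of the count tables whose symbol was on the list, 28 of 55335 genes in each table, and all 28 passed the filter on low counts, which left 17364 genes tested in the Chrm3 experiment and 16807 in the ageing experiment. By role they comprised 7 genes of the mevalonate steps, 11 of the later sterol steps and 7 of transport, esterification and the LXR pathway. The other 3 were Srebf2, which encodes the transcription factor SREBP2, and Insig1 and Scap, which control it. Of the 28, 18 are synthesis enzymes. The list is not the whole pathway.

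The cells were sorted by the EGFP signal of the Lgr5 reporter allele, and strand-specific TruSeq libraries were made from their RNA. In the Chrm3 experiment every mouse carried Lgr5CreERT2-IRES-GFP together with Chrm3flox/flox, the floxed gene of the M3 muscarinic acetylcholine receptor. WT mice received vehicle and KO mice received tamoxifen (TAM), injected for 3 days ahead of the ES procedure, and each genotype had an NT group and an ES group, with n = 2 libraries in each of the 4 groups. The sources do not spell out ES or NT, and the series title speaks of chronic stress. KO therefore differed from WT in the receptor and in the drug, and these cannot be told apart. In the ageing experiment the mice carried Lgr5CreERT2-IRES-GFP and were 2 months (young) or 18 months old, labelled WT and NT, with n = 3 libraries per age. Cre is driven from Lgr5, so it acts first in Lgr5 cells. The labels do not say that each library came from a separate animal, and all p-values refer to the spread among libraries, which may be technical.

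As background, cells make cholesterol from acetyl-CoA through mevalonate, farnesyl pyrophosphate, squalene and lanosterol. When sterols in the endoplasmic reticulum run low, SCAP escorts SREBP2 to the Golgi, where it is cleaved, and the freed factor switches on most of the synthesis genes and its own gene; when sterols are ample, INSIG proteins hold SCAP back. Oxidised sterols activate the liver X receptors (LXR), which switch on exporters such as ABCA1 and the ABCG5/ABCG8 pair. In the small intestine NPC1L1 takes up dietary cholesterol at the brush border, ABCG5 and ABCG8 pump sterols back into the lumen, and SOAT2 (the protein also called ACAT2, distinct from the thiolase gene Acat2) esterifies cholesterol for export.

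The promoters of 3 members are shown because they hold matches to elements known from this control: Hmgcs1, the member in which the sterol regulatory element (SRE) was found, and Mvk and Insig1, which were picked after their values were seen as the synthesis gene with the largest change in KO in NT and the gene with the largest fall with age. Sequences are from RefSeq, build GRCm38.p6, 5′ to 3′ on the gene strand, cut to the bases that lie in no annotated exon. Hmgcs1 is chr13:119690101-119690350 (+), Mvk is chr5:114444061-114444268 (+), and Insig1 is chr5:28071162-28071362 (+). Capitals mark the SRE, searched as TCACNCCAC, and the NF-Y box, searched as CCAAT, which reads ATTGG where it lies on the other strand.
Hmgcs1: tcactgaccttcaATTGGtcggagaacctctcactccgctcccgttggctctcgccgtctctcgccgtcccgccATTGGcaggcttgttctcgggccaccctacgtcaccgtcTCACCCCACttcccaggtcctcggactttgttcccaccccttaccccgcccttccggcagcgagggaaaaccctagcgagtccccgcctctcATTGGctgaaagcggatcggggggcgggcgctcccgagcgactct
Mvk: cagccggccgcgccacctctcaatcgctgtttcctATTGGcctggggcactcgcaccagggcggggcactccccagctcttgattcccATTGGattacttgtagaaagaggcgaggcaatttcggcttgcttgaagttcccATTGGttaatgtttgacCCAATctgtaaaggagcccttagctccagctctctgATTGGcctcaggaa
Insig1: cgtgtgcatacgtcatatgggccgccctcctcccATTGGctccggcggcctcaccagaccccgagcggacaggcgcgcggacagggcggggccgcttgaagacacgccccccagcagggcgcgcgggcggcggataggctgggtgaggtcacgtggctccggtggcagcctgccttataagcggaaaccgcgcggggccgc
The Hmgcs1 stretch holds 1 SRE, which begins 137 bases upstream of the RefSeq start, and 3 NF-Y boxes. The Mvk stretch holds 5 NF-Y boxes and no SRE, and the Insig1 stretch holds 1 NF-Y box.

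Promoter windows of 300 bases (250 before to 50 after a start) were at hand for 23 of the 28 members, in 29 entries; Fdps, Fdft1, Sqle, Stard4 and Soat2 had none. With both strands searched, the SRE was present in 1 entry, that of Hmgcs1, against 1.24% of 32851 mouse promoter windows of the same length. The NF-Y box was present in 19 of 29 entries (65.5%), against 37.4% of all windows. By gene, 14 of the 18 synthesis genes had it in an entry, and Fdps, Fdft1 and Sqle had no entry to search. The E-box CACGTG was present in 7 entries of 6 genes (24.1% of entries), Hsd17b7, Sc5d, Dhcr7, Insig1, Scap and Abca1, against 7.15% of all windows. The LXR element known as DR4, a spaced repeat of AGGTCA, was in 0 entries of members and in 0.0152% of all windows. These matches describe letters in a window and do not show binding, and no match says nothing about a factor.

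Total counts were 26683563 to 36882310 per library in the Chrm3 experiment and 32366366 to 35804988 in the ageing experiment, and 6.12 to 8.74% of them were mitochondrial, most in KO NT replicate 2. Chrm3 itself had 355 and 386 counts in WT NT against 343 and 254 in KO NT, and with ES 357 and 291 in WT against 256 and 213 in KO. Scaled to library size (CPM, defined below), it stood at 11.2 and 13.0 in WT NT against 9.24 and 7.71 in KO NT. With ES it stood at 11.6 and 10.9 in WT against 8.13 and 6.04 in KO. No KO library exceeded its WT group, and counts of the gene remained in the KO libraries. Counts over the whole gene cannot show how far its floxed part was deleted. Stem cell markers were high in every library (8 genes summing to 11177 to 16574 CPM in the Chrm3 experiment, where CPM is the count scaled to the effective size of its library, and 11994 to 15176 CPM in the ageing experiment). The sorted cells also held markers of goblet cells (2539 to 10349 CPM for 8 genes), Paneth cells (6910 to 11260 CPM for 8 genes) and enterocytes (1713 to 3235 CPM for 14 genes). Fibroblast markers summed to at most 0.222 CPM. In bulk RNA, fewer cells of a type and less RNA per cell cannot be told apart.

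Levels of members differed widely when set per kb of exon. The length was that of the merged exons of all annotated transcripts of a gene. It ran from 1.71 kb for Pmvk to 10.8 kb for Lss, so the ranks depend on which transcripts are annotated. In WT NT, Stard4, which carries cholesterol between membranes, was highest at 37.8 ± 0.58 CPM per kb (SD, n = 2), and Hmgcs1, which makes HMG-CoA, followed at 37.3 ± 0.42, within the spread of Stard4. Insig1 at 29.2 ± 0.98, the isomerase gene Idi1 at 25.3 ± 0.19 and Srebf2, which encodes SREBP2, at 21.1 ± 0.70 came next, and the ranges of Srebf2 and Ebp (20.6 ± 0.27) overlapped. Abca1 was lowest in WT NT, at 0.737 ± 0.025 CPM per kb, below the reductase gene Tm7sf2 at 3.31 ± 0.032. In the young libraries (n = 3) Hmgcs1 led at 50.6 ± 3.0 CPM per kb, ahead of Stard4 at 40.9 ± 1.6 and Insig1 at 37.4 ± 2.8, whose ranges overlapped, and Abca1 was again lowest at 0.299 ± 0.044. Exons of Hmgcs1 (12.1% of their bases), Idi1 (9.22%) and Scap (13.2%) overlap unnamed gene models on the opposite strand, whose reads cannot be told apart if counting ignored strand. The experiments were scaled separately, so no level of one was tested against the other.

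**Figure D1:**
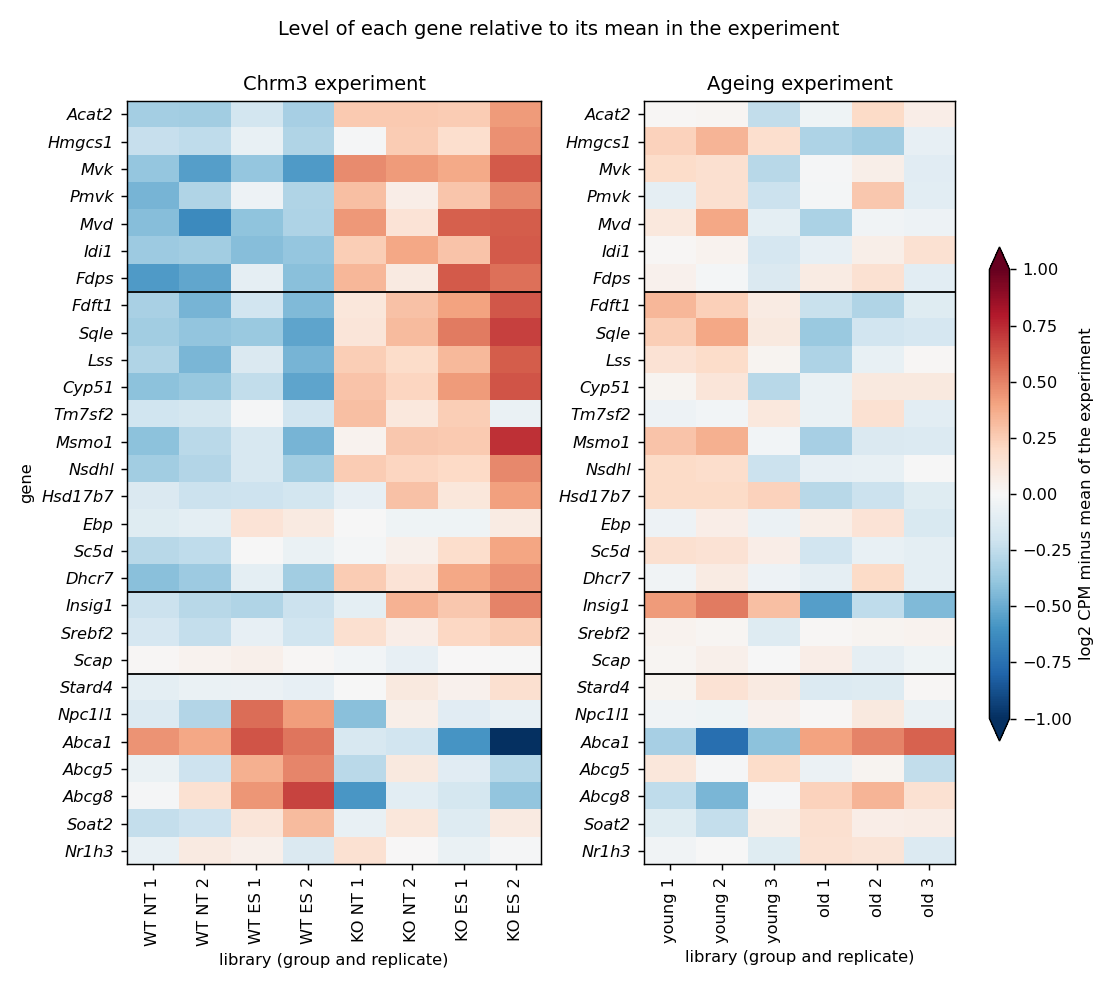
Level of each of the 28 genes (rows, grouped by role with black lines: mevalonate steps, sterol steps, SREBP2 control, transport and LXR) in every library (columns), as log2 CPM minus the mean of that gene over the libraries of the experiment; the colour scale ends at -1 and 1. The 18 synthesis genes are redder in the KO libraries than in WT NT, Abca1 is blue in KO and in young, and Insig1 is blue in the old libraries.

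The first question was how loss of Chrm3 in Lgr5 cells, with the tamoxifen that induced it, related to these genes without ES. In KO NT 12 of the 18 synthesis genes rose, and no member fell. A total of 13 of the 28 members rose: 6 of 7 mevalonate genes, 6 of 11 sterol genes and Srebf2, where 4.47% of all tested genes passed, 2.36% upward and 2.11% downward. None of the 7 transport and LXR genes passed. All 18 synthesis genes were higher in both KO NT libraries than in both WT NT libraries, where 22.7% of all tested genes were placed that way and 25.4% the opposite way. Their median log2 fold change was 0.59, against -0.01 for all tested genes, and their mean log2 CPM was 5.25 ± 0.01 in WT NT and 5.79 ± 0.004 in KO NT (SD, n = 2).

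With ES the same comparison had more calls in each direction. A total of 17 members rose and 4 fell in KO ES against WT ES, where 7.56% of all tested genes passed, 3.09% upward and 4.47% downward. The risers were 7 of 7 mevalonate genes, 8 of 11 sterol genes, Insig1 and Srebf2, and the 13 genes that rose in NT were all among them. The genes that fell were 4 of the 7 transport and LXR genes, Npc1l1, Abca1, Abcg5 and Abcg8. The median log2 fold change was 0.70 over the 18 synthesis genes and -0.58 over the 7 transport and LXR genes, against 0.00 for all tested genes. In KO ES 16 of 18 synthesis genes lay above both WT ES libraries, where 27% of all genes did, and Ebp lay below them, as 26.3% of all genes did. Mean log2 CPM of the synthesis genes was 5.34 ± 0.12 in WT ES and 5.99 ± 0.12 in KO ES (SD, n = 2).

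Of the mevalonate genes, Mvk, which encodes mevalonate kinase, changed most. It stood at 11.3 and 10.1 CPM in WT NT against 20.4 and 19.8 in KO NT, and with ES at 11.2 and 9.95 in WT against 19.2 and 22.5 in KO. Every KO library was thus above every WT library, with a log2 fold change of 0.91 ± 0.12 in NT (adjusted p = 0.00193, edgeR) and 0.97 ± 0.12 in ES (adjusted p = 0.00107). Mvd, the decarboxylase that makes isopentenyl pyrophosphate, was counted at 16.2 and 14 CPM in WT NT against 29.4 and 23.9 in KO NT, and with ES at 16.4 and 17.5 in WT against 32.9 and 33.0 in KO. Its groups did not overlap either, and it rose by 0.82 ± 0.12 in NT (adjusted p = 0.00338) and 0.96 ± 0.12 in ES (adjusted p = 0.000916).

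Fdps, which makes farnesyl pyrophosphate, stood at 43.1 and 44.4 CPM in WT NT against 80.3 and 67.6 in KO NT, and with ES at 59.9 and 47.8 in WT against 97.5 and 93.5 in KO. Its log2 fold change was 0.76 ± 0.11 in NT (adjusted p = 0.00354) and 0.82 ± 0.11 in ES (adjusted p = 0.00144); 26.7% of its exon bases are shared with the gene model Gm43738 on the same strand. Idi1, which interconverts the isopentenyl building blocks, stood at 88.2 and 89.2 CPM in WT NT against 135 and 148 in KO NT, and with ES at 84.8 and 87.0 in WT against 139 and 174 in KO. It rose by 0.68 ± 0.10 in NT (adjusted p = 0.00333) and 0.87 ± 0.10 in ES (adjusted p = 0.000589). In both genes all 4 KO libraries were above all 4 WT libraries.

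Acat2, the cytosolic thiolase at the entry of the pathway, stood at 51.3 and 50.9 CPM in WT NT against 77.7 and 77.5 in KO NT, and with ES at 57.0 and 51.4 in WT against 77.3 and 86.9 in KO. Its rise was 0.60 ± 0.08 in NT (adjusted p = 0.00178) and 0.60 ± 0.08 in ES (adjusted p = 0.00144). Pmvk, phosphomevalonate kinase, stood at 10.8 and 12.1 CPM in WT NT against 18.4 and 15.6 in KO NT, and with ES at 14.4 and 12.1 in WT against 18.1 and 20.9 in KO, and its rise of 0.57 ± 0.14 in NT (adjusted p = 0.0399) and 0.55 ± 0.13 in ES (adjusted p = 0.0321) passed narrowly. Hmgcs1, whose promoter with the SRE is shown above, was the mevalonate gene with the smallest change. It stood at 173 and 170 CPM in WT NT against 200 and 241 in KO NT, and with ES at 193 and 164 in WT against 227 and 277 in KO. The 4 KO values again lay above the 4 WT values, with a log2 fold change of 0.37 ± 0.11 in NT, which did not pass (adjusted p = 0.105), and 0.50 ± 0.11 in ES, which did (adjusted p = 0.0233).

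Of the sterol genes, Sqle, which encodes squalene epoxidase, an oxygen-using rate-controlling step, changed most in ES. It stood at 61.8 and 59.9 CPM in WT NT against 85.4 and 97.8 in KO NT, and with ES at 60.8 and 54.6 in WT against 112 and 126 in KO. The KO libraries were above the WT libraries throughout, and the KO ES pair was above the KO NT pair. The log2 fold change was 0.59 ± 0.09 in NT (adjusted p = 0.00437) and 1.05 ± 0.09 in ES (adjusted p = 9.71e-05). Cyp51, the lanosterol demethylase, stood at 68.8 and 70.3 CPM in WT NT against 112 and 106 in KO NT, and with ES at 77.0 and 63.5 in WT against 123 and 141 in KO, and rose by 0.64 ± 0.10 in NT (adjusted p = 0.00398) and 0.91 ± 0.10 in ES (adjusted p = 0.000405).

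Fdft1, squalene synthase, the enzyme that commits farnesyl pyrophosphate to sterols, stood at 58.2 and 52.8 CPM in WT NT against 79.1 and 89.3 in KO NT, and with ES at 63.8 and 53.8 in WT against 96.6 and 112 in KO. It rose by 0.60 ± 0.10 in NT (adjusted p = 0.01) and 0.83 ± 0.10 in ES (adjusted p = 0.00115). Lss, which cyclises the product of squalene epoxidase to lanosterol, stood at 39.7 and 35.4 CPM in WT NT against 58.0 and 55.5 in KO NT, and with ES at 44.1 and 35.4 in WT against 61.2 and 74.0 in KO. It rose by 0.59 ± 0.12 in NT (adjusted p = 0.018) and 0.76 ± 0.12 in ES (adjusted p = 0.00356). The gene before and the gene after the epoxidase thus moved the same way as Sqle.

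Nsdhl, which takes part in removing methyl groups from the sterol ring, stood at 24 and 24.9 CPM in WT NT against 36.4 and 35.4 in KO NT, and with ES at 27.4 and 24 in WT against 35.2 and 42.8 in KO. It rose by 0.55 ± 0.11 in NT (adjusted p = 0.0153) and 0.60 ± 0.11 in ES (adjusted p = 0.00788). Dhcr7, the reductase of the last step of one branch, stood at 43.1 and 44.8 CPM in WT NT against 68.8 and 63.5 in KO NT, and with ES at 54 and 45.3 in WT against 75.4 and 79.2 in KO. It rose by 0.59 ± 0.09 in NT (adjusted p = 0.00437) and 0.64 ± 0.09 in ES (adjusted p = 0.002). In these genes too every KO library exceeded every WT library.

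A pair of sterol genes passed in ES alone. Msmo1, the sterol methyl oxidase, stood at 43.3 and 47.7 CPM in WT NT against 59.0 and 69.5 in KO NT, and with ES at 51.4 and 41.7 in WT against 69.0 and 95.6 in KO, a log2 fold change of 0.50 ± 0.15 in NT (adjusted p = 0.1) and 0.82 ± 0.15 in ES (adjusted p = 0.00931). Sc5d, a sterol desaturase, stood at 49.5 and 50.4 CPM in WT NT against 59.1 and 62.1 in KO NT, and with ES at 59.6 and 57.3 in WT against 67.7 and 78.7 in KO, a log2 fold change of 0.28 ± 0.08 in NT (adjusted p = 0.0873) and 0.32 ± 0.08 in ES (adjusted p = 0.0356). The WT ES values of Sc5d overlapped its KO NT values, so genotype did not part all 8 libraries for this gene. Passing in ES and missing in NT does not show that the effects differ; their difference is tested below.

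The other 3 sterol genes passed in neither. Hsd17b7, a sterol ketone reductase, had a log2 fold change of 0.29 ± 0.13 in NT (adjusted p = 0.271) and 0.47 ± 0.13 in ES (adjusted p = 0.054). Tm7sf2, a sterol reductase that shares 12.1% of its exon bases with Vps51 on the same strand, had 0.40 ± 0.13 in NT (adjusted p = 0.127) and 0.19 ± 0.13 in ES (adjusted p = 0.439). Ebp, the sterol isomerase, stood at 47.1 and 48.0 CPM in WT NT against 51.0 and 49.7 in KO NT. With ES it stood at 56.4 and 54.7 in WT against 49.9 and 54.2 in KO. Its change was 0.08 ± 0.07 in NT (adjusted p = 0.597) and -0.09 ± 0.07 in ES (adjusted p = 0.477), the smallest among the synthesis genes.

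Srebf2, the gene of SREBP2, and Insig1 and Scap, which control SREBP2, did not move as a block. Srebf2 stood at 155 and 148 CPM in WT NT against 195 and 183 in KO NT, and with ES at 164 and 152 in WT against 201 and 206 in KO, a rise of 0.32 ± 0.06 in NT (adjusted p = 0.0195) and 0.37 ± 0.06 in ES (adjusted p = 0.00737). Insig1, which is a target of SREBP2 as well as its brake, stood at 92.4 and 88.1 CPM in WT NT against 99.8 and 136 in KO NT, and with ES at 86.9 and 92.0 in WT against 129 and 151 in KO. Its KO NT libraries lay far apart, and its change was 0.38 ± 0.12 in NT (adjusted p = 0.127) and 0.65 ± 0.12 in ES (adjusted p = 0.0115). Scap, the escort of SREBP2, ranged only from 77.3 to 85.0 CPM over all 8 libraries and passed in neither comparison (log2 fold change -0.08 ± 0.06 in NT and -0.03 ± 0.06 in ES).

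Among the transport and LXR genes Abca1, which exports cholesterol to lipid-poor apolipoprotein, changed most. It stood at 7.82 and 7.46 CPM in WT NT against 5.12 and 5.01 in KO NT, and with ES at 8.84 and 8.27 in WT against 3.81 and 2.75 in KO. The 4 KO values lay below the 4 WT values and the KO ES pair was lowest. The log2 fold change was -0.59 ± 0.16 in NT, which did not pass (adjusted p = 0.0738), and -1.39 ± 0.18 in ES, which did (adjusted p = 0.00121).

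The paired sterol exporters and the importer passed in ES as well. Abcg8 stood at 35.8 and 40.2 CPM in WT NT against 24.2 and 33.6 in KO NT, and with ES at 49.2 and 57.9 in WT against 32.0 and 27.5 in KO, with a change of -0.40 ± 0.15 in NT (adjusted p = 0.181) and -0.85 ± 0.15 in ES (adjusted p = 0.00676). Abcg5 stood at 40.7 and 36.9 CPM in WT NT against 35.3 and 45.6 in KO NT, and with ES at 54.4 and 59.7 in WT against 39.2 and 34.9 in KO, with a change of 0.06 ± 0.12 in NT (adjusted p = 0.86) and -0.62 ± 0.12 in ES (adjusted p = 0.0111). Npc1l1 stood at 61.5 and 55.3 CPM in WT NT against 50.7 and 70.6 in KO NT, and with ES at 99.5 and 90.5 in WT against 62.5 and 64.4 in KO, with a change of 0.05 ± 0.13 in NT (adjusted p = 0.882) and -0.58 ± 0.13 in ES (adjusted p = 0.0213). For these 3 genes, and for Abca1 and Soat2, the WT ES pair stood above the other 6 libraries.

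The remaining 3 genes of this group passed in neither comparison. Soat2 changed by 0.24 ± 0.11 in NT (adjusted p = 0.279) and -0.23 ± 0.11 in ES (adjusted p = 0.225). Stard4 changed by 0.13 ± 0.06 (adjusted p = 0.321) and 0.17 ± 0.06 (adjusted p = 0.128). Nr1h3, which encodes LXR alpha, changed by 0.07 ± 0.11 (adjusted p = 0.78) and 0.01 ± 0.11 (adjusted p = 0.975).

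**Figure D2:**
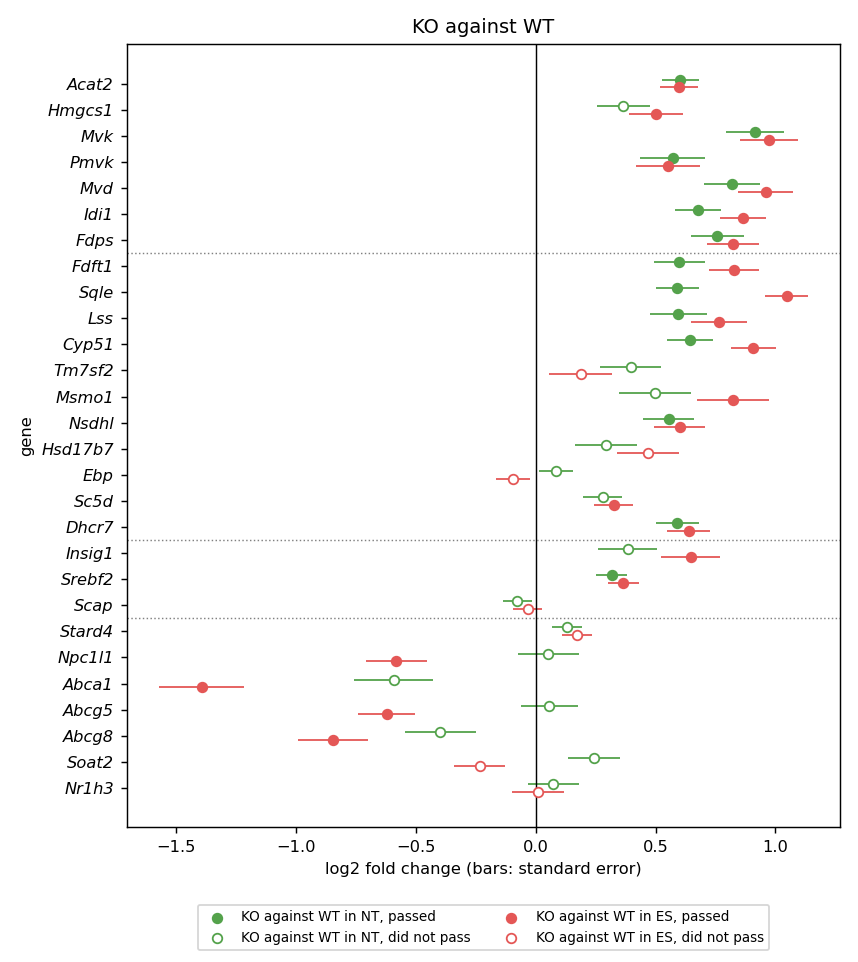
Log2 fold change of KO against WT for each of the 28 genes (rows, by role) in NT (green) and in ES (red); filled points passed at an adjusted p under 0.05, open points did not, and bars are standard errors. Filled points to the right are synthesis genes, Insig1 and Srebf2, up to 1.05 for Sqle in ES, and filled points to the left are Npc1l1, Abca1, Abcg5 and Abcg8 in ES, down to -1.39.

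Markers of other cells moved with genotype as well. In NT, 8 of 8 goblet cell markers and 6 of 6 tested tuft cell markers fell in KO, with goblet sums of 4991 to 5106 CPM in WT and 2539 to 2610 in KO, while 5 of 8 cell cycle genes rose (sums of 1794 to 1822 CPM in WT and 2172 to 2259 in KO) and 1 of 14 enterocyte markers rose. In NT 2 of 8 Paneth, 2 of 8 enteroendocrine and 2 of 8 stem cell markers fell too. In ES, 13 of 14 enterocyte markers fell in KO (2803 to 3235 CPM in WT, 1713 to 1957 in KO), as did 8 of 8 goblet markers (10138 to 10349 CPM in WT, 4327 to 4365 in KO), 7 of 8 enteroendocrine markers, 4 of 6 tested tuft cell markers and 2 of 8 Paneth markers, while 4 of 8 stem cell markers rose (11177 to 11557 CPM in WT, 14234 to 14981 in KO) and 0 of 8 cell cycle genes passed. No defining marker of enterocytes or goblet cells was at 0. The part of cell makeup in the changes of the sterol genes was not tested.

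These counts leaned on single libraries. In NT the count of 13 came to 3 without WT NT replicate 1 and to 2 without WT NT replicate 2, a setting that leaves 1 WT NT library, assumed to vary like the other groups, and Acat2 and Mvk passed whichever library was left out. In ES the count of 21 came to 11 without WT ES replicate 2 and to 11 without KO ES replicate 2, and the 11 genes that passed whichever library was left out were Acat2, Mvk, Mvd, Idi1, Fdps, Fdft1, Sqle, Lss, Cyp51, Dhcr7 and Abca1.

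The next question was what ES did in WT. The WT ES libraries enter this comparison and that of KO with WT in ES. In WT 2 of 28 members rose with ES, Npc1l1 and Abcg5, and 0 fell, where 3.48% of all tested genes passed, 2.1% upward and 1.39% downward. Of the 18 synthesis genes 0 passed by edgeR, with 3 at an unadjusted p under 0.05 (18.6% of all genes), and their median log2 fold change was 0.08 against 0.00 for all tested genes. Mean log2 CPM of the 7 transport and LXR genes was 5.12 and 5.12 in WT NT and 5.44 and 5.46 in WT ES.

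Npc1l1 rose from the values given above by 0.70 ± 0.13 on the log2 scale (adjusted p = 0.0179) and Abcg5 by 0.55 ± 0.12 (adjusted p = 0.0338), each with both WT ES libraries above both WT NT libraries. Without overlap, 12 of the 28 members were higher and 1, Idi1, was lower, against 26% and 26.9% of all tested genes. Soat2, at 22.5 and 22.9 CPM in WT NT and 28.8 and 33.0 in WT ES, did not pass (0.44 ± 0.11, adjusted p = 0.0545), nor did Abcg8 (0.49 ± 0.14, adjusted p = 0.0917). Of the mevalonate genes Fdps had the largest change (0.30 ± 0.11, adjusted p = 0.172), of the sterol genes Sc5d (0.23 ± 0.08, adjusted p = 0.161), and of the SREBP2 genes Srebf2 (0.06 ± 0.06, adjusted p = 0.691). Srebf2, Insig1 and Scap did not part the groups.

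Enterocyte markers stood higher in the same libraries: 14 of 14 were above WT NT in both WT ES libraries and 4 of 14 passed, with sums of 2017 to 2039 CPM in WT NT and 2803 to 3235 in WT ES. All 8 stem cell markers fell, and all 8 goblet, 3 of 8 Paneth and 3 of 8 enteroendocrine markers rose. Of 8 cell cycle genes 3 rose and 1 fell. The part of these cells in the rise of Npc1l1 and Abcg5 was not tested. With any 1 of the 4 WT libraries left out, 0 members passed, and with either KO NT library left out 4 did, Abcg8 and Soat2 being added.

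In KO mice, by edgeR, 0 of 28 members passed with ES, where 0.513% of all tested genes did, with 10 members at an unadjusted p under 0.05 (8.6% of all genes). DESeq2 called 1 member, Sqle, where it called 1.3% of all genes, and limma-voom called 0, where it called 0.432%. The members with the smallest p were Sqle at 0.38 ± 0.09 (adjusted p = 0.103), Fdps at 0.37 ± 0.11 (adjusted p = 0.24) and Sc5d at 0.27 ± 0.08 (adjusted p = 0.249). The largest change among the transport genes was that of Abca1, -0.64 ± 0.19 (adjusted p = 0.26), and among the SREBP2 genes that of Insig1, 0.25 ± 0.12 (adjusted p = 0.635). Without KO NT replicate 2, the library with the highest mitochondrial share, 2 members passed, Sqle and Insig1; the part of that share was not tested. With ES in KO 3 of 14 enterocyte markers fell, while 7 of 8 goblet and 4 of 8 Paneth markers rose and 0 of 8 stem cell markers passed.

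Whether ES acted differently in KO and WT was tested directly, as KO minus WT. By edgeR 0 of 28 members passed, where 0.109% of all tested genes did, with 5 members at an unadjusted p under 0.05 (11.5% of all genes). DESeq2 called 2 members, Abcg5 and Npc1l1, where it called 1.22% of all genes, and limma-voom called 0, where it called 0.0461%. The smallest p belonged to Abcg5, whose ES effect was lower in KO by 0.68 ± 0.17 on the log2 scale (-0.68, adjusted p = 0.159), to Sqle, whose effect was higher by 0.46 ± 0.13 (adjusted p = 0.199), and to Npc1l1 (-0.64 ± 0.18, adjusted p = 0.211). Abca1 had the largest difference, -0.80 ± 0.25 (adjusted p = 0.25). Differences of the 18 synthesis genes ran from -0.21 for Tm7sf2 to 0.46 for Sqle. Without KO NT replicate 1, Abcg5 and Npc1l1 passed. This comparison uses all 4 groups and so shares libraries with the others.

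**Figure D3:**
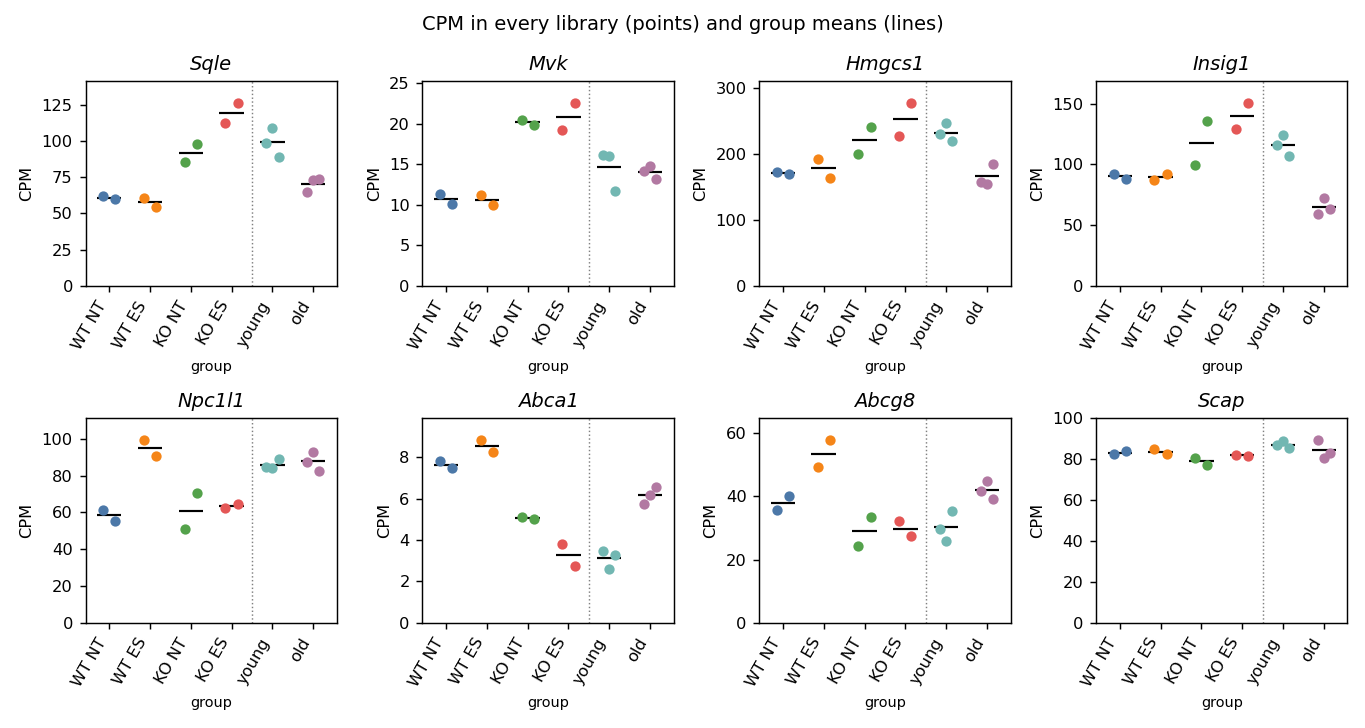
CPM (linear axes from 0) of 8 genes in every library, by group; points are libraries, lines are group means, and the dotted line parts the Chrm3 experiment (4 groups of 2) from the ageing experiment (3 young, 3 old), which were scaled separately. Sqle and Mvk lie higher in KO NT and KO ES than in WT NT and WT ES. Within the Chrm3 experiment Npc1l1 and Abcg8 are highest in WT ES. Insig1 and Hmgcs1 are lower in old than in young, and Scap is level at 77.3 to 89.5 CPM.

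The last comparison asked how the genes differed with age. In old mice 7 members fell and 2 rose, where 7.84% of all tested genes passed, 3.42% downward and 4.42% upward. The genes that fell were 1 of 7 mevalonate genes (Hmgcs1), 5 of 11 sterol genes (Fdft1, Sqle, Msmo1, Hsd17b7 and Sc5d) and Insig1, and the genes that rose were the exporters Abca1 and Abcg8. The fall did not run through the whole pathway: the median over the 18 synthesis genes was -0.08, against 0.00 for all tested genes, and 7 of 18 were above 0. Mean log2 CPM of the synthesis genes was 5.61 ± 0.12 in young and 5.47 ± 0.07 in old (SD, n = 3), with overlapping libraries. Without overlap between ages, 9 of the 28 members were lower in old and 3 higher, against 13.2% and 13.2% of all tested genes.

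Insig1 fell most. It stood at 116, 124 and 107 CPM in young and 59.0, 72.4 and 63.5 in old. No old library came near a young one, and the log2 fold change was -0.83 ± 0.08 (adjusted p = 0.000185). Its partner genes did not pass: Srebf2 changed by 0.05 ± 0.06 (adjusted p = 0.702) and Scap by -0.05 ± 0.06 (adjusted p = 0.743).

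Hmgcs1, the only mevalonate gene to pass, stood at 230, 247 and 220 CPM in young and 158, 154 and 185 in old, a change of -0.49 ± 0.08 (adjusted p = 0.0029). The groups did not overlap, in contrast to the 6 other mevalonate genes, which all overlapped and changed by -0.27 (Mvd) to 0.14 (Acat2). Sqle stood at 98.6, 109 and 89.0 CPM in young and 64.6, 73.0 and 74.0 in old (-0.49 ± 0.08, adjusted p = 0.0047). Fdft1 stood at 85.6, 80.3 and 71.8 CPM in young and 58.2, 55.1 and 62.7 in old (-0.43 ± 0.08, adjusted p = 0.00646). Fdft1 shares 18.3% of its exon bases with Ctsb on the opposite strand, and no source names the strand setting of the counting.

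Hsd17b7 stood at 33.2, 33.2 and 34.2 CPM in young and 24, 25.1 and 26.8 in old (-0.41 ± 0.08, adjusted p = 0.0074). Msmo1 stood at 78.3, 82.4 and 63.2 CPM in young and 51.1, 58.4 and 58.7 in old (-0.41 ± 0.10, adjusted p = 0.0274). Sc5d stood at 69.5, 68.9 and 65.2 CPM in young and 54.7, 59.1 and 58.1 in old (-0.24 ± 0.06, adjusted p = 0.0373). In all 3 the old libraries lay below the young ones. The other 6 sterol genes did not pass, from Lss at -0.24 ± 0.09 (adjusted p = 0.136), also without overlap, to Cyp51 at 0.08 ± 0.09 (adjusted p = 0.72).

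Abca1 stood at 3.45, 2.59 and 3.27 CPM in young and 5.76, 6.15 and 6.57 in old. The old libraries were all above the young ones, and the gene rose by 0.99 ± 0.18 (adjusted p = 0.00613). Abcg8 stood at 29.8, 25.8 and 35.2 CPM in young and 41.6, 44.7 and 39.3 in old, a rise of 0.47 ± 0.11 (adjusted p = 0.0211). Its partner Abcg5, with which it forms the exporter, stood at 51.2, 47.0 and 53.7 CPM in young and 45.4, 48.3 and 39.9 in old, and did not pass (-0.18 ± 0.08, adjusted p = 0.236). Npc1l1 (0.03 ± 0.06, adjusted p = 0.85), Soat2 (0.20 ± 0.09, adjusted p = 0.243), Stard4 (-0.17 ± 0.06, adjusted p = 0.113) and Nr1h3 (0.11 ± 0.10, adjusted p = 0.613) did not pass either.

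The exporter pair did not keep one ratio. Abcg8 counts were 0.581, 0.550 and 0.656 of Abcg5 counts in young and 0.918, 0.926 and 0.985 in old, with no overlap between ages. The ratio was 0.880 and 1.09 in WT NT against 0.686 and 0.737 in KO NT, and with ES 0.904 and 0.970 in WT against 0.816 and 0.787 in KO, lower in every KO library than in every WT library. The genes lie head to head on chromosome 17 and share 82 exon bases on opposite strands. The ratio was formed after the values were seen and is a description.

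Markers of other cells differed with age too. All 7 T cell markers rose, from sums of 26.5 to 40.1 CPM in young to 145 to 175 CPM in old, 5 of 6 tested tuft cell markers fell (142 to 173 CPM to 78.3 to 80.2 CPM) and 5 of 8 enteroendocrine markers rose. Of 8 Paneth markers 4 fell, and of 8 goblet markers 3 rose and 2 fell. Enterocyte sums overlapped (2457 to 2991 CPM in young, 2480 to 2903 in old), with 3 of 14 markers rising and 1 falling. The part of these cells in the changes of Abca1, Abcg8 or the sterol genes was not tested. Without old replicate 1, 5 of the 9 members passed, and Abca1, Fdft1, Hmgcs1, Insig1 and Sqle passed whichever library was left out.

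**Figure D4:**
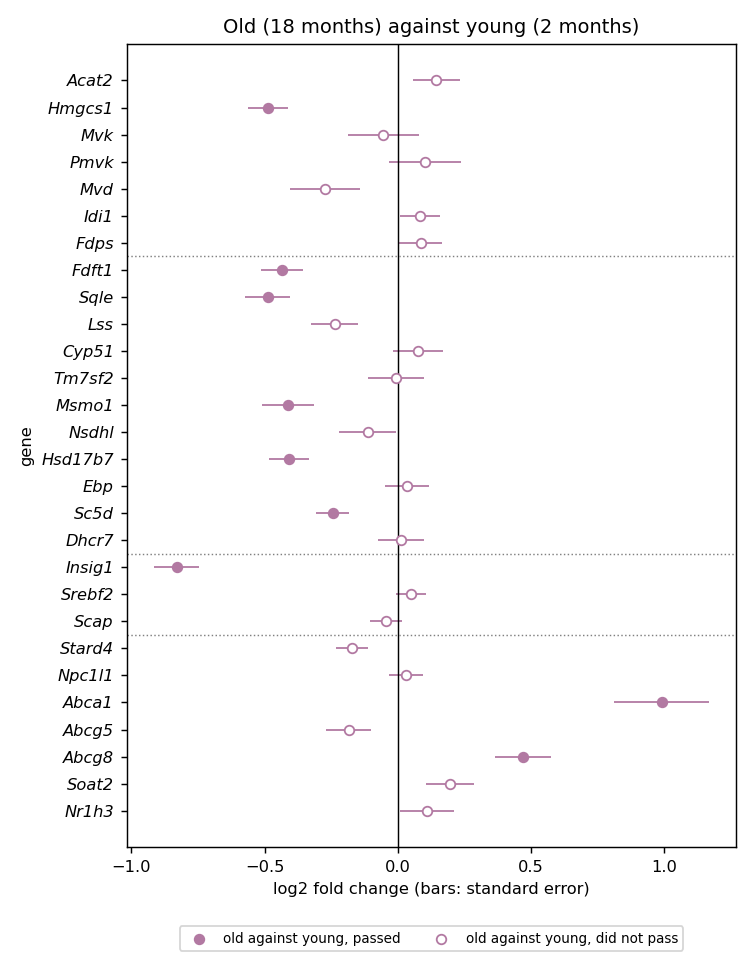
Log2 fold change of old (18 months) against young (2 months) for each of the 28 genes (rows, by role); filled points passed at an adjusted p under 0.05, open points did not, and bars are standard errors. Insig1 lies farthest left at -0.83 and Abca1 farthest right at 0.99, while 6 of 7 mevalonate genes are open and lie between -0.27 and 0.14.

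Set beside each other, age and genotype called partly the same members in opposite directions. Of the 17 members that rose in KO in NT or ES, 6 fell in old (35.3% of the 17 and 85.7% of the 7 that fell): Hmgcs1, Fdft1, Sqle, Msmo1, Sc5d and Insig1. Over all 16506 genes tested in both tables, 60 genes did so, 7.54% of those that rose in KO and 10.7% of those that fell in old. As 17 of the 28 members rose in KO, most of the 7 would be expected among them without any link to age. A link within the set was not tested. Abca1 and Abcg8 fell in KO in ES and rose in old, 2 of the 4 members that fell in KO and 2 of the 2 that rose with age, where 13.3% and 16.5% of all such genes did. The other 11 members that rose in KO were not called with age. Across all 28 members, Pearson's r between the change in KO and the change with age was -0.50 with KO in NT and -0.63 with KO in ES (Spearman's rho -0.20 and -0.43). Across the 18 synthesis genes alone r was 0.20 and -0.19. These are descriptions across genes, which are not independent replicates. By edgeR with all libraries, 6 members passed in no comparison: Tm7sf2, Ebp, Scap, Stard4, Soat2 and Nr1h3. Of these, Soat2 did pass for ES in WT by DESeq2 and under 6 other settings, Ebp for ES in WT when only the WT groups were fitted, and Stard4 in old with the replicate block and without old replicate 3.

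**Figure D5:**
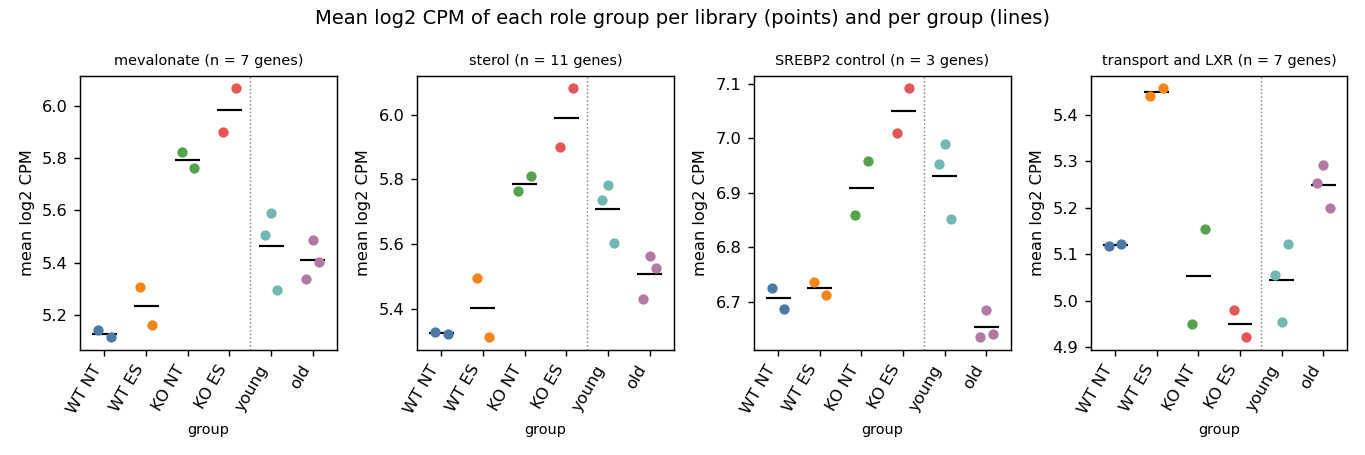
Mean log2 CPM over the genes of each role group (4 panels, axes not from 0) in every library; points are libraries, lines are group means, and the dotted line parts the separately scaled experiments. Mevalonate and sterol genes are higher in KO than in WT. Within the Chrm3 experiment transport and LXR genes are highest in WT ES (5.44 and 5.46). The mean of Srebf2, Insig1 and Scap (SREBP2 control) is lower in old than in young, where Insig1 alone of the 3 passed.

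Neighbouring pathways were read from lists of 16 fatty acid targets of SREBP, 23 other genes of cholesterol handling and 12 genes of the non-sterol isoprenoid branch. Of the fatty acid genes 4 of 16 rose in KO in NT, where 2.36% of all tested genes rose, and 7 of 16 in ES, where 3.09% did. None fell, the other 12 and 9 did not pass, and the median log2 fold change was 0.27 and 0.28. Scd2, a stearoyl-CoA desaturase, had mean levels of 98.7 CPM in WT NT and 363 CPM in KO NT and rose by 1.88 ± 0.17 in NT (adjusted p = 0.000169) and 1.79 ± 0.17 in ES (adjusted p = 0.000204). Fads1, a fatty acid desaturase, rose by 0.44 ± 0.08 in NT (adjusted p = 0.0101) and 0.54 ± 0.08 in ES (adjusted p = 0.00215). Srebf1, the gene of SREBP1, rose in NT (0.36 ± 0.07, adjusted p = 0.017) and did not pass in ES (0.15 ± 0.07, adjusted p = 0.231). Aacs, acetoacetyl-CoA synthetase, rose in ES (0.63 ± 0.08, adjusted p = 0.00133). In old 1 of 15 tested fatty acid genes fell, where 3.42% of all tested genes did. It was Me1, the malic enzyme that supplies NADPH (-1.32 ± 0.11, adjusted p = 5.86e-05).

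Of the other cholesterol genes 22 were tested. Cyp27a1, which makes an oxysterol that activates LXR, fell in KO in NT (-0.76 ± 0.14, adjusted p = 0.012) and in ES (-0.74 ± 0.14, adjusted p = 0.00928) and rose in old (0.46 ± 0.12, adjusted p = 0.035). In NT it was the only 1 of the 22 to pass, where 4.47% of all tested genes did. In ES Lipa, lysosomal acid lipase, fell too (-0.73 ± 0.17, adjusted p = 0.0276). That made 2 of 22 in ES, where 7.56% of all tested genes passed. Both counts lay near the share over all genes and are not a result about this list. In old 4 rose, Cyp27a1, Gramd1a, Gramd1b and Nr1h2, which encodes LXR beta, and 1 fell, Stard5. Over all tested genes 4.42% rose and 3.42% fell with age. Gramd1a moves cholesterol from the plasma membrane to the endoplasmic reticulum. Its mean levels were 7.99 CPM in young and 23.1 CPM in old (1.54 ± 0.12, adjusted p = 3.94e-05). Gramd1b rose by 0.50 ± 0.10 (adjusted p = 0.00933). Stard5, a sterol carrier, fell by 0.47 on the log2 scale (SE 0.10, adjusted p = 0.018). With ES in WT, Elovl6 rose and Acss2 and Soat1 fell on these lists, and none passed with ES in KO. The shares of all tested genes that passed were 3.48% with ES in WT and 0.513% with ES in KO. In the isoprenoid branch 0 of 12 genes passed in any comparison by edgeR. An unadjusted p under 0.05 was reached by 2 of them in KO against WT in NT, 2 in ES and 1 with age. Of all tested genes 17.7%, 22.9% and 21.5% did so in these comparisons.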

How the data were processed

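RNA of 14 libraries was sequenced from strand-specific TruSeq libraries, per the labels' protocols. The values are raw counts per Ensembl gene, deposited by the authors in 1 table of 8 libraries and 1 of 6, with no normalization. The submitters' processing notes name mm10 and FastQC 0.11.2; the aligner, counting tool and strand setting were not given in the sources used here. Columns named Ctrl were read as NT. Gene positions are from GENCODE, build GRCm38.

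Each table was filtered with filterByExpr defaults, scaled by TMM and fitted on its own with the quasi-likelihood test of edgeR 4.0.16, with 1 mean per group and no replicate term. P-values were adjusted by Benjamini-Hochberg over all tested genes, and a gene rose or fell when the adjusted p was under 0.05. The ± after a log2 fold change is an approximate standard error from the change and its F statistic; the ± after a level is an SD. Mean log2 CPM used a prior count of 2. The fit was checked on simulated counts. The members, related lists and named-gene rule (all 28 members by role, each passing member with its libraries, up to 4 passing genes per related list) were chosen with earlier results of these data known. Alternatives were RLE size factors, other count filters, DESeq2 1.42.0, limma-voom (limma 3.58.1), a replicate term, fitting only the groups compared, leaving out each library, and, chosen after seeing the data, the older quasi-likelihood test.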

Additional observations from a re-analysis of the deposited data

How the results depend on the processing

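No call of a named member changed direction under any alternative run: of 802 values, 697 kept their side of the threshold, 92 no longer passed and 13 newly passed. Of members passing, ES in WT gave 0 without a count filter, 3 with RLE size factors, 3 with a 1 CPM filter, 4 by DESeq2, 4 with the replicate block and 6 with only the groups compared, against 2; KO against WT in NT gave 8 without a count filter, against 13, and in ES 14, against 21; in old 6 passed without a count filter, against 9. DESeq2 gave 1 for ES in KO and 2 for the difference of the ES effects, against 0. Leaving out 1 library moved the count between 0 and 4 (ES in WT), 0 and 2 (ES in KO), 2 and 14 (KO in NT), 11 and 22 (KO in ES), 0 and 2 (difference) and 5 and 10 (old). Without a count filter more genes were tested, and with a library left out fewer samples entered. The cause of the shifts was not tested. Over all genes the calls moved by more than 1.5 times under these settings: without a count filter 114 genes for ES in WT (605 as reported), 8 for ES in KO (89), 317 for KO in NT (776), 593 for KO in ES (1312), 0 for the difference (19) and 666 in old (1318); by DESeq2 1028, 226 and 211 for ES in WT, ES in KO and the difference; by limma-voom 8 and by the older test 11 for the difference; with only the groups compared 1875 for ES in WT and 24 for ES in KO.

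The labels do not say whether replicate numbers pair the samples, and the libraries did not settle it. Same-numbered libraries had deviations correlated at -0.0083 to 0.103 in the Chrm3 experiment and at 0.0045, 0.0837 and 0.0802 in the ageing experiment. Not every library correlated best with its own number. In a group of 2 libraries the deviations mirror each other, so this check can hardly tell. With the replicate block 13 members passed in KO against WT in NT, 22 in ES, 10 in old, 0 in ES in KO and 0 in the difference, and over all genes 970 passed for ES in WT, 206 for ES in KO, 104 for the difference and 2019 in old. Groups of 2 libraries limit the precision of every Chrm3 comparison.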
